A study of Mus musculus with 19 samples.

Results

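Soleus muscle of control mice was compared with control C2C12 myoblasts, which are a mouse muscle cell line grown as dividing, mononucleated cells. The comparison took the 3 soleus arrays of heterozygous control mice (genotype db -/+) and the 6 arrays of C2C12 cells carrying empty plasmids, 9 of the 19 arrays in the series. The mice were male C57BL6J animals aged 12 weeks, littermates of db/db mice, and were fasted for 5 h before the muscle was taken, and they carried 1 copy of the db allele, so they were not wild type. The C2C12 cells had been transfected with both empty plasmids and selected with hygromycin and geneticin at 500 µg/ml, and were collected 48 h after plating at about 80% confluency in growth medium. RNA was extracted with columns from the cells and with Trizol followed by columns from the muscle, so extraction also differed between the groups. In the remaining arrays, 6 C2C12 samples overexpressed HDAC4 and HDAC5 and 4 soleus samples came from db/db mice. The study's methods describe cell replicates as separate dishes or wells, but give fewer replicates per group than there are control C2C12 arrays. No label says whether some of these arrays share a culture, so p-values for that side cover the spread between these samples, which may be partly technical. Soleus is whole tissue with many cell types, and a lower signal in tissue can come from fewer cells of a type or from less RNA per cell, which cannot be told apart here.

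Myoblasts are the dividing precursors of muscle fibres. When they leave the cell cycle they fuse, build sarcomeres and exchange embryonic and general forms of many proteins for muscle forms, a programme driven by the MyoD family and by MEF2 proteins. The soleus is a postural muscle in which oxidative slow fibres, with the beta myosin heavy chain Myh7, are common beside fast oxidative fibres with Myh2. Adult muscle tissue also holds vessels, nerve, connective tissue, fat and immune cells, none of which is part of a C2C12 culture.

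Signals are given as log2 of the processed intensity relative to the 75th percentile of the same array, so a difference of 1 is a 2-fold change. On the 6 C2C12 arrays that percentile was 564 to 1691 (median 775) and 53.1% to 57.5% of probes were well above background. On the 3 soleus arrays the percentile was 188, 153 and 555, and 47.5%, 46.8% and 50.1% of probes were well above background. Soleus arrays 1 and 2 lay on 1 slide and soleus array 3 on another, and no slide held both groups, so slide, scan and tissue cannot be told apart. The lowest signal well above background was -3.30, -3.31 and -3.96 on the soleus arrays and -6.14 to -5.20 on the C2C12 arrays, so a weak transcript could be seen in C2C12 cells at a level not seen in soleus. The number of arrays, and not counting error, limits the precision. Arrays correlated across genes at 0.991 or more within C2C12, 0.934 to 0.979 within soleus and 0.555 to 0.603 between the groups, and the median SD over genes was 0.136 in C2C12 and 0.49 in soleus.

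Much of the measured transcriptome differed. Of 14673 genes tested with limma, 11098 (75.6%) passed a Benjamini-Hochberg adjusted p of 0.05, so a passing p alone says little about any gene and only differences of at least 4-fold that also passed are called here. There were 2939 genes called higher in soleus (20%) and 2103 called higher in C2C12 (14.3%), 34.4% together. The median difference of all tested genes was -0.02, and its 5th and 95th percentiles were -3.42 and 6.54. The groups did not overlap for 10435 tested genes (71.1%). A gene was on in a group when a probe of it was well above background on every array of the group, and off when none of its probes was on any array. Of 27404 gene names, 660 were on in soleus and off in C2C12 (2.41%), 1099 were on in C2C12 and off in soleus (4.01%), 9592 (35%) were on in both and 7884 were off in both. By their lower bound all of the 660 and 249 of the 1099 (22.7%) differed by at least 4-fold, shares that depend on the unequal detection floors of the groups and are not read further. In the authors' matrix of the same arrays 42.1% of called genes were higher in soleus, against 58.3% from the scanner values. The fit of that matrix covered 12336 genes without a filter on dim probes, so the gene set and filter differed as well as the scaling. Quantile normalization of the scanner values gave 2640 higher in soleus and 2752 higher in C2C12 (49% higher in soleus).

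Among genes measured on every array, Slc2a4 and Myh7 had the 2 largest measured rises in soleus. Slc2a4, the insulin-responsive glucose transporter GLUT4, stood at 7.12, 7.78 and 6.99 in soleus and at -5.11 to -4.66 (median -4.75) in C2C12 cells, at least 4393-fold higher in soleus because the spot was saturated on 1 soleus array (log2 difference 12.10 ± 0.19 SE, adjusted p = 7.12e-11). Myh7 stood at 8.39, 8.93 and 7.57 in soleus, where the spot was saturated on all 3 arrays, and at -3.80 to -3.37 (median -3.64) in C2C12, so the difference was at least 3811-fold. Both genes were chosen among those whose groups did not overlap, so their lack of overlap adds no support. The others of the 10 largest measured rises were the junctional calcium release protein Trdn (10.95), the Z-disc protein Myoz1 (10.94), the M-band protein Myom1 (10.60), the monoglyceride lipase Mgll (10.57), the muscle phosphoglycerate mutase Pgam2 (10.47), the peroxisomal coenzyme A hydrolase Nudt7 (9.90), the actin-binding SRF activator Abra (9.73) and the glycerol phosphate dehydrogenase Gpd1 (9.72). All of these except Mgll and Nudt7 had a saturated spot on at least 1 soleus array, so their differences are lower limits and their order is not fixed. A saturated soleus spot was seen in 152 of the 2939 genes called higher in soleus (5.17%). Triadin, Trdn, was seen at 7.65, 8.10 and 7.02 in soleus against -3.66 to -3.21 (median -3.31) in C2C12.

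The 10 largest differences in the other direction ran from -7.97 to -6.25. Slpi, a secreted protease inhibitor, stood at 5.14 to 5.98 (median 5.89) in C2C12 and at -1.90, -2.91 and -1.80 in soleus, at least 251-fold higher in C2C12 because the spot was saturated on 1 C2C12 array (log2 difference -7.97 ± 0.28 SE, adjusted p = 2.41e-09). Gdf15, a stress-induced cytokine, stood at 4.84 to 5.15 (median 4.91) in C2C12 and at -2.20, -2.44 and -2.21 in soleus, a log2 difference of -7.24. These genes too were chosen among those whose groups did not overlap. The remaining 8 were the synaptotagmin Syt13 (-7.28, also saturated on 1 C2C12 array), the replication helicase subunit Mcm5 (-6.74), mesothelin Msln (-6.59), the condensin subunit Ncapg (-6.51), the X-linked lymphocyte-regulated gene Xlr (-6.50), a replication-dependent histone H2ac15 (-6.32), the anaphase ubiquitin-conjugating enzyme Ube2c (-6.29) and the glutathione transferase Gsta1 (-6.25).

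**Figure D1:**
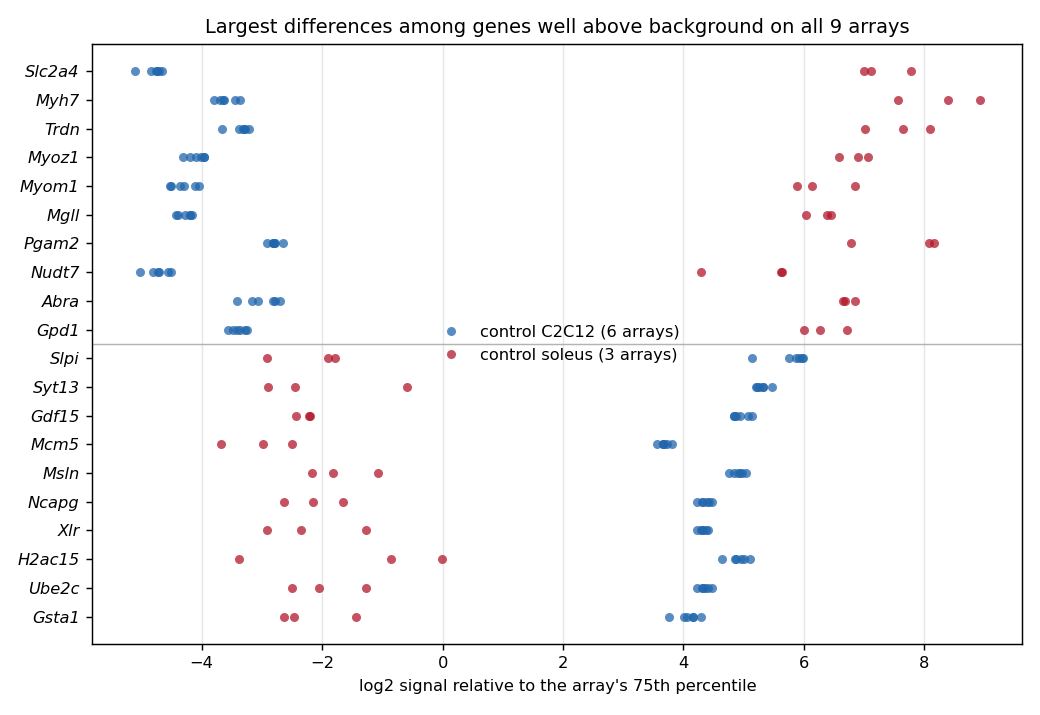
Signal of the 20 genes with the largest differences among those well above background on all 9 arrays, 1 point per array, on a log2 scale relative to the array's 75th percentile (horizontal axis). The upper 10 were higher in soleus (red) and the lower 10 in C2C12 (blue), and all were chosen among genes whose groups do not overlap.

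Most transcripts listed for slow and for fast fibres were called higher in soleus. Of 12 tested slow fibre genes 11 were called higher in soleus and 0 lower, with a median difference of 6.66. That median was 5.74 and 5.90 without soleus replicates 1 and 2. Of 12 fast fibre genes 11 were called higher and 0 lower, with a median of 7.87, or 7.00 with quantile normalization. In each list 91.7% were called higher, against 20% of all tested genes, of which 14.3% were called lower. The slow list held the ventricular and slow light chain Myl2 (11.36), the muscle LIM protein Csrp3 (9.58), myoglobin Mb (8.93) and the slow troponins Tnni1 (4.63) and Tnnt1 (4.43). The fast list held the IIa heavy chain Myh2, at 8.61 and 8.98 on the 2 soleus arrays with a usable spot and -6.18 to -5.31 (median -5.50) in C2C12, where 1 of 6 arrays was well above background. The IIb chain Myh4 (12.80), the IIx chain Myh1 (8.29) and the calcium buffer Pvalb (at least 2176-fold higher, off in C2C12) were also in this list. Spots of Myl2, Mb, Tnnt1, Myh1 and Myh2 were saturated on every usable soleus array, so their differences are lower limits.

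Some contractile genes were well above background in C2C12 cells too. Tnni1 stood at 2.62 to 2.88 (median 2.69) in C2C12 and 7.35, 7.89 and 6.83 in soleus, and Tnnt1 at 3.58 to 3.90 (median 3.78) and 8.46, 8.84 and 7.30. The fast alpha-actinin Actn3 did not pass the adjusted p, at 4.69 to 5.00 (median 4.85) in C2C12 and 3.87, 4.42 and 4.95 in soleus (log2 difference -0.43 ± 0.21 SE, adjusted p = 0.0859), and its groups overlapped. Slow tropomyosin Tpm3 was lower in soleus by a log2 difference of -1.78 (adjusted p = 0.000256), below the 4-fold limit. Tpm1, whose 4 probes disagreed, was 3.17 higher by the probe used but had a difference of -1.03 by the mean of its probes.

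Embryonic muscle genes did not move as 1 group. Of 11 tested developmental isoforms 2 were called higher and 4 lower in soleus (18.2% and 36.4%, against 20% and 14.3% of all tested genes), with a median of 0.59. The embryonic heavy chain Myh3 stood at 2.83, 3.73 and 3.77 in soleus and 2.41 to 2.63 (median 2.56) in C2C12, a log2 difference of 0.90 that passed the adjusted p (0.00249) and not the 4-fold limit. Cardiac actin Actc1 differed by 0.64, with an adjusted p of 0.0817. Cardiac troponin T Tnnt2 (-2.17) and the adhesion molecule Ncam1 (-2.43) were called lower in soleus.

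Pairs of paralogues, in which a muscle form and a form used in other cells or stages encode the same kind of protein were compared next. Of 29 listed pairs 25 had both genes tested. All 25 muscle forms were higher in soleus past the adjusted p and 23 past 4-fold, while 14 of the 25 other forms were lower past the adjusted p, 4 were higher and 7 were called 4-fold lower, beside 75.6% of all tested genes that passed the adjusted p and 14.3% called 4-fold lower. The median difference was 9.75 for the muscle forms and -0.89 for the others. The muscle form had the larger rise in 24 pairs, the exception being myosin light chain kinase, where the muscle form Mylk2 differed by 1.63 and the smooth muscle form Mylk by 6.41. In the 6 pairs with a usable spot of both forms on all 9 arrays the within-array difference between the forms did not overlap between groups (exact permutation test over arrays, two-sided, p = 0.0238 for each, the smallest that 3 against 6 arrays allow). In 3 of these 6 pairs the p rests partly on values below detection, because Acacb was well above background on 3 and Ampd1 and Phkg1 on 0 of the C2C12 arrays. The pairs were also listed with earlier results of these data known, so no conclusion is drawn from this p. For 19 pairs at least 1 array lacked a usable spot.

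Alpha-actinin is an example. The sarcomeric form Actn2 stood at 7.62 and 7.71 on 2 soleus arrays and was not well above background on any C2C12 array, at least 10631-fold higher, while the non-muscle form Actn1 stood at -3.16, -3.53 and -3.21 in soleus and at 0.95 to 1.31 (median 1.097) in C2C12 and was 21.4-fold higher in the cells. Energy enzymes showed the same order. Creatine kinase Ckm differed by 10.27 and its brain form Ckb by -1.38, phosphoglycerate mutase Pgam2 by 10.47 and Pgam1 by -2.65, and carnitine palmitoyltransferase Cpt1b by 10.22 and Cpt1a by -0.89. Acetyl-CoA carboxylase Acacb, which makes the malonyl-CoA that restrains fatty acid entry into mitochondria, differed by 10.97, with 3 of 6 C2C12 arrays well above background, and Acaca of lipid synthesis by -0.07 (adjusted p = 0.816). The translation machinery had such pairs too, with the elongation factor Eef1a2 at 10.43, where 1 of 6 C2C12 arrays was well above background, and Eef1a1 at -0.17, and the ribosomal protein Rpl3l, off on the C2C12 arrays and at least 2952-fold higher in soleus, standing beside Rpl3 at -1.61.

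**Figure D2:**
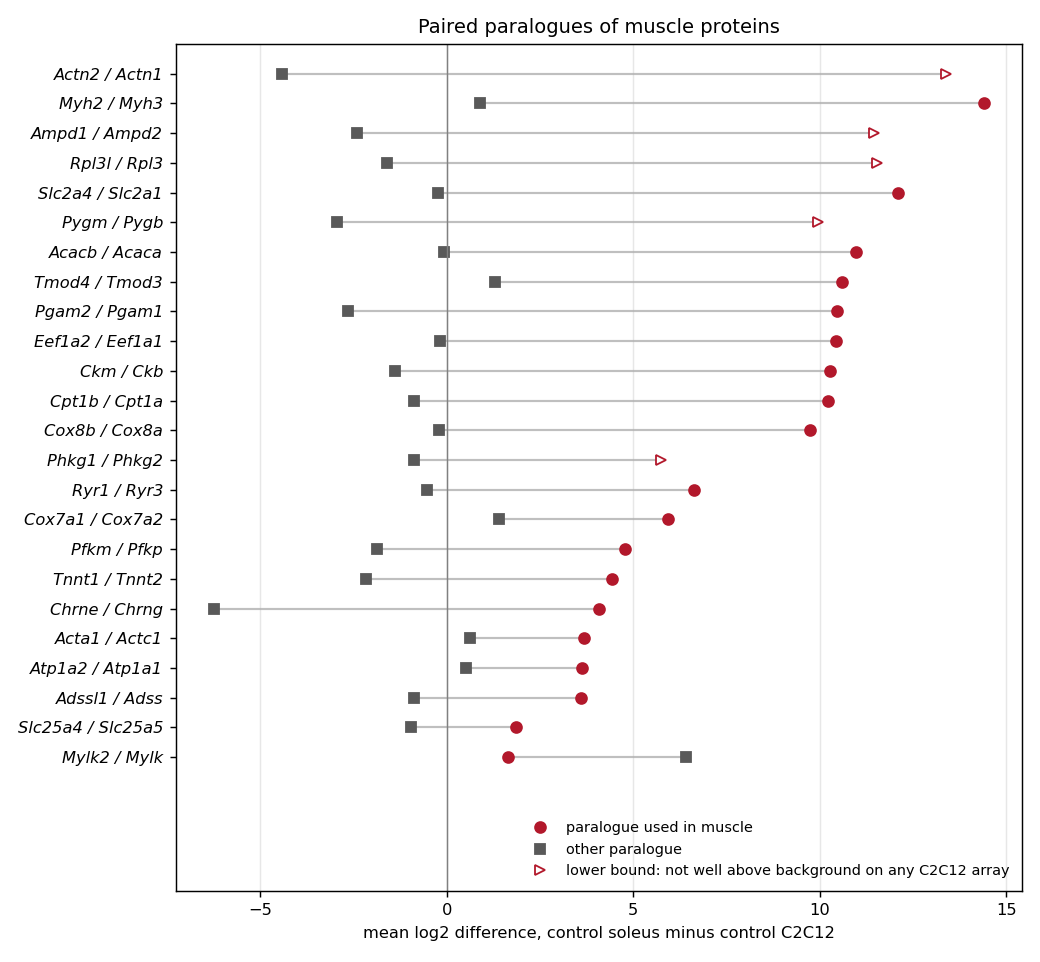
Mean log2 difference between control soleus and control C2C12 (horizontal axis, positive is higher in soleus) for 24 of the 25 pairs with both genes tested, the muscle form as a red circle and the other form as a grey square joined by a line. Open triangles are lower bounds, and the red mark lies to the right in every pair drawn except Mylk2 and Mylk.

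Subunits of the acetylcholine receptor of the nerve-muscle contact differed in both directions. The adult epsilon subunit of the acetylcholine receptor, Chrne, stood at -0.01, 0.54 and 0.94 in soleus and -3.77 to -3.41 (median -3.60) on the 4 C2C12 arrays with a usable spot, a log2 difference of 4.09 ± 0.24 SE (adjusted p = 9.87e-07). The fetal gamma subunit Chrng stood at -2.87, -2.48 and -1.69 in soleus and at 3.72 to 4.04 (median 3.91) in C2C12, a difference of -6.23 ± 0.23 (adjusted p = 3.57e-09). The 2 subunits thus changed in opposite directions. Neither overlapped between groups, but neither did 71.1% of all tested genes, so the lack of overlap adds nothing here. The adult sodium channel Scn4a differed by 4.06. Of 30 tested genes of excitation and calcium release 16 were called higher and 6 lower in soleus (53.3% and 20%, against 20% and 14.3% of all tested genes), with a median of 2.34 that was 3.26 without soleus replicate 2 and 1.38 over genes well above background on all 9 arrays. Among those called lower were Chrng, the receptor subunits Chrna1 (-3.07) and Chrnd (-2.61), the receptor anchor Rapsn (-2.30) and the calcium channel subunit Cacng1 (-2.60). The voltage sensor Cacna1s (8.48), the release channel Ryr1 (6.62) and the calcium pump regulator Sln (12.17) were called higher.

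Promoter sequence is shown for genes whose signal separated the groups in each direction, as bases before the RefSeq start in GRCm38.p6, 5′ to 3′ on the gene's strand. The capitals mark CAGCTG, an E-box that MyoD family proteins can bind, and, in Pgam2, a MEF2 element. Chrne (chr11:70619195-70619354 (minus strand)) and Chrng (chr1:87205651-87205810 (plus strand)) both hold the E-box although they changed in opposite directions, and Pgam2 (chr11:5803797-5803946 (minus strand)) and the caveolin Cav3 (chr6:112459355-112459504 (plus strand)) were both higher in soleus.
Chrne: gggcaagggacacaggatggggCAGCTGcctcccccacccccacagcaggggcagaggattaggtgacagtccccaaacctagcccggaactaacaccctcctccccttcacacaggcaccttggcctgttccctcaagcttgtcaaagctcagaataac
Chrng: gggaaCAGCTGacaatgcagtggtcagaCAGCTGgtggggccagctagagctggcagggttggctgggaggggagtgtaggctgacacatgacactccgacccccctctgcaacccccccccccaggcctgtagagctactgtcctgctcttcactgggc
Pgam2: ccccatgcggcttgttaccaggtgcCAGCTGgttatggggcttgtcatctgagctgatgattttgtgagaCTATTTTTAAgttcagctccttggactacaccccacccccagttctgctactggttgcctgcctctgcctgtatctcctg
Cav3: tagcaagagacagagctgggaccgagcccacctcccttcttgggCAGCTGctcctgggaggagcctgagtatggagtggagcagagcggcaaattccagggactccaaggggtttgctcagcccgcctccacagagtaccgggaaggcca
CAGCTG, which reads the same on both strands, lay within 250 bases before the start in 10 of 19 genes of excitation and calcium release with a promoter in the table (52.6%), in 5 of 13 slow fibre genes (38.5%) and in 5 of 11 fast fibre genes (45.5%), against 14.7% of 27025 genes. The MEF2 element lay there in 2 of the slow (15.4%), 3 of the fast (27.3%) and 1 of the excitation genes (5.26%), against 3.42% of all. CAGCTG was also in 3 of 8 developmental isoforms with a promoter (37.5%) and the MEF2 element in 1 (12.5%). That list had 2 genes called higher and 4 lower in soleus. These are letter matches in a short window and not measured sites.

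Regulators of the muscle programme were split. Of 20 tested, 6 were called higher and 5 lower in soleus (30% and 25%, against 20% and 14.3% of all tested genes), with a median of 0.63 that was -0.08 over genes well above background on all 9 arrays and -0.04 by the mean of all probes. Myod1, which commits cells to the muscle lineage, stood at -1.94, -1.11 and 0.42 in soleus and 2.51 to 2.90 (median 2.69) in C2C12, a difference of -3.58 ± 0.40 (adjusted p = 1.76e-05). Myogenin, Myog, which acts later in differentiation, was lower in soleus by a log2 difference of -1.74 (adjusted p = 1.81e-05), and the fusion protein Mymk by -2.51. The late regulator Myf6 stood at 3.98, 4.63 and 3.06 in soleus and -3.69 to -3.28 (median -3.53) in C2C12, a difference of 7.38, and Mef2c differed by 7.17. Sox6, which represses slow fibre genes, was at least 253-fold higher in soleus, and Prox1, linked to the slow fibre type, differed by 4.23. The inhibitors of MyoD action Id3 (-2.67), Id2 (-2.04) and Msc (-2.02) were called higher in C2C12.

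**Figure D3:**
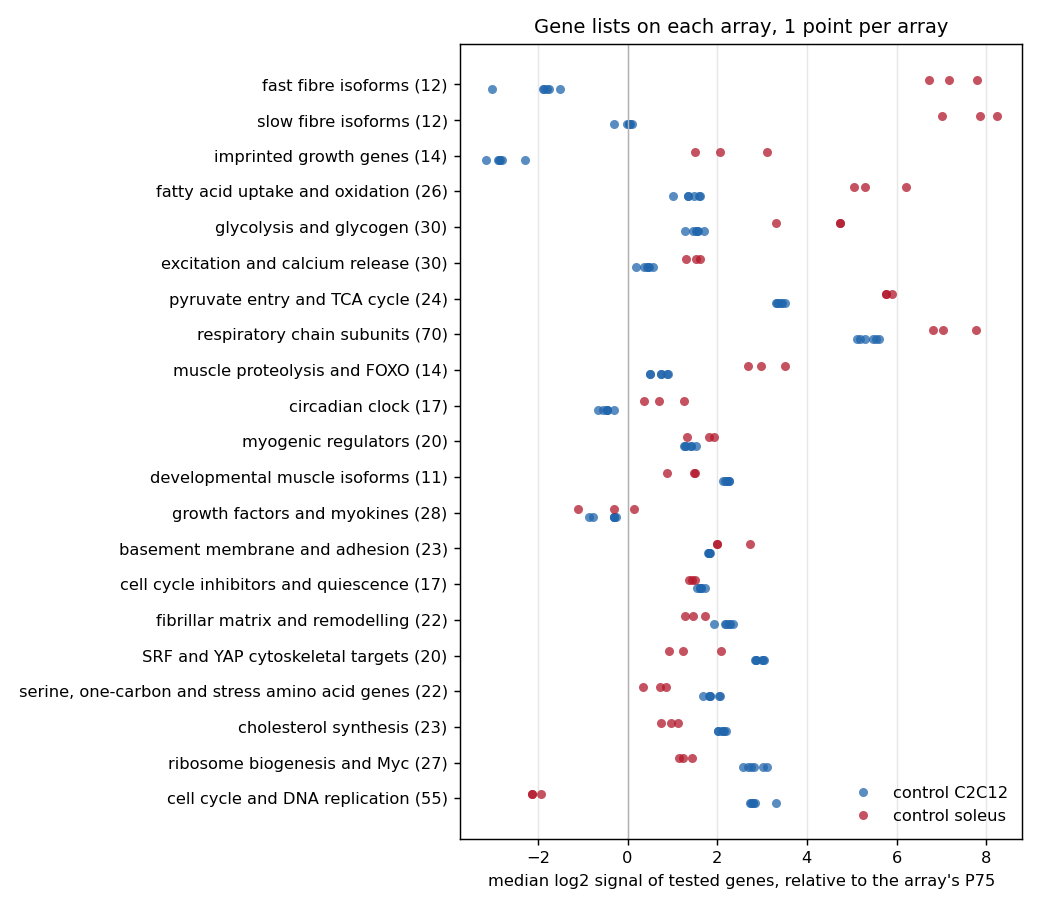
Median log2 signal of the tested genes of each list on each array, relative to the array's 75th percentile (P75, horizontal axis), with 1 point per array for the 6 control C2C12 (blue) and 3 control soleus arrays (red). Numbers in brackets are genes tested, and fibre isoform lists lie far to the right in soleus while the cell cycle list lies to the left.

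Genes of cell division were lower in soleus almost throughout. Of 55 tested genes of the cell cycle and DNA replication 52 (94.5%) were called higher in C2C12 and 0 higher in soleus. Among all tested genes these shares were 14.3% and 20%. The median was -5.39, or -4.67 with the 11 genes on in C2C12 and off in soleus at their bound and -3.80 with normexp. Cyclin B1, Ccnb1, which with Cdk1 drives entry into mitosis, stood at 2.72 to 2.80 (median 2.77) in C2C12 and was off in soleus, at least 78.1-fold higher in C2C12. Topoisomerase Top2a, which untangles replicated DNA, stood at 1.40 to 1.86 (median 1.79) in C2C12 and was off in soleus, at least 37.7-fold higher. Some members were measured in soleus too. The proliferation antigen Mki67 stood at -1.72, -0.46 and 0.47 in soleus and 4.71 to 4.94 (median 4.83) in C2C12, a difference of -5.40, and the replication clamp Pcna at 2.86, 3.47 and 3.93 against 5.26 to 6.09 (median 5.99), a difference of -2.46. The securin Pttg1, with 5.02 and 5.95 in soleus and 5.16 to 5.29 (median 5.22) in C2C12, was the member that did not pass (adjusted p = 0.36).

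The start-proximal promoters of 4 of these genes are shown because CCAAT boxes and the CHR element TTTGAA, found in many genes of the late cell cycle, recur in them. Capitals mark CCAAT or its reverse complement ATTGG, and TTTGAA or its reverse complement TTCAAA. The stretches are Ccnb1 at chr13:100786487-100786606 (minus strand), Cdk1 at chr10:69352913-69353012 (minus strand), Top2a at chr11:99024190-99024299 (minus strand) and Ube2c at chr2:164769829-164769928 (plus strand).
Ccnb1: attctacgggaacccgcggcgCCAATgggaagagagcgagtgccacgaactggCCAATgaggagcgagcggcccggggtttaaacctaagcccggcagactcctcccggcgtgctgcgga
Cdk1: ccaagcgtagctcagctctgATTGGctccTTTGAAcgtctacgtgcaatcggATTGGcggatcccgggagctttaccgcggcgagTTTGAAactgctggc
Top2a: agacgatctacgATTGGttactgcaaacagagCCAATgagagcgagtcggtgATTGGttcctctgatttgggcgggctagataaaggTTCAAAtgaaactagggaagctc
Ube2c: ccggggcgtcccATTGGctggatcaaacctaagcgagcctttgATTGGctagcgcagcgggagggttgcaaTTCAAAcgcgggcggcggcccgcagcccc
On either strand of the 250 bases before the start, CCAAT was present in 36 of 46 list genes with a promoter in the table (78.3%), against 37.5% of 27025 genes, and TTTGAA in 12 of 46 (26.1%) against 18.3%. The stretch of Ccnb1 holds 2 CCAAT boxes and no TTTGAA, and that of Cdk1 holds 2 of each.

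**Figure D4:**
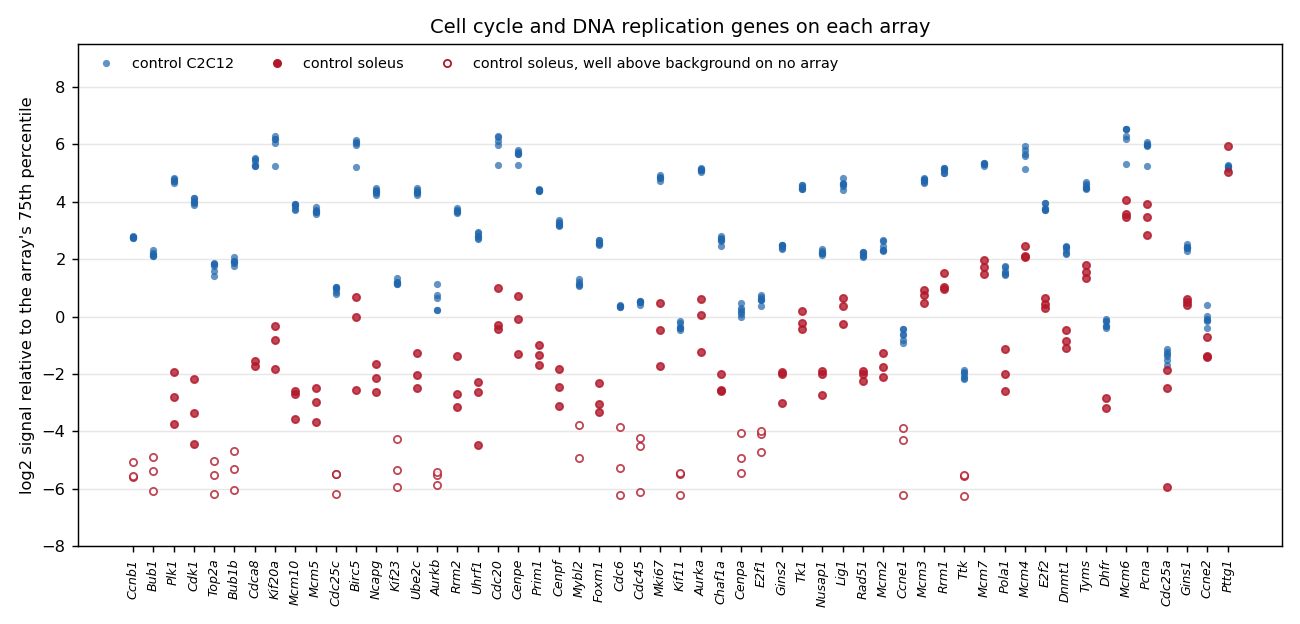
Log2 signal relative to the array's 75th percentile (vertical axis) of the 55 tested cell cycle and DNA replication genes, ordered by their difference, with 1 point per array. C2C12 points (blue) lie above soleus points (red) in nearly every gene, open red points are genes well above background on no soleus array, and Pttg1 at the right end overlaps.

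Brakes of the cell cycle did not move together. Of 17 tested, 5 were called higher and 2 lower in soleus (29.4% and 11.8%, against 20% and 14.3% of all tested genes), with a median of -0.04 that was 0.65, 0.02 and 0.22 without soleus replicates 1, 2 and 3. Cdkn1a, the p21 inhibitor, stood at 0.07, 0.21 and 0.48 in soleus and 3.41 to 3.69 (median 3.55) in C2C12, a difference of -3.30 ± 0.13 (adjusted p = 6.72e-09). Cdkn1c, the p57 inhibitor, stood at 2.13, 2.27 and 3.47 in soleus and was off in C2C12, at least 322-fold higher in soleus. These inhibitors of the same family were therefore separated in opposite directions. The p15 inhibitor Cdkn2b was also on in soleus and off in C2C12, and the p27 gene Cdkn1b differed by 0.81.

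Of 70 tested respiratory chain subunits 38 were called higher and 0 lower. The median was 2.13, or 0.63 with quantile normalization and 1.81, below the 4-fold limit, with outlier-marked spots kept. On soleus array 3, the only control soleus array on its slide, 32 of the 70 had a usable spot, against 69 and 68 on arrays 1 and 2. Many of these calls therefore rest on 2 soleus arrays of 1 slide. Of 24 genes of pyruvate entry and the TCA cycle 14 were called higher and 0 lower (median 2.19), and 15 of the 24 had a usable spot on soleus array 3. Of 26 genes of fatty acid uptake and oxidation 24 were called higher and 0 lower (median 3.63). The shares called higher were 54.3%, 58.3% and 92.3%, against 20% of all tested genes, of which 14.3% were called lower. The largest in the respiratory list were the muscle forms of cytochrome oxidase, Cox8b (9.75), Cox6a2 (9.57) and Cox7a1 (5.92), the last 2 saturated on every usable soleus array. Cox7c was lower in soleus by a difference of -1.50 (adjusted p = 0.00141), below the 4-fold limit. The fatty acid transporter Cd36 stood at 5.20, 5.25 and 6.20 in soleus and -6.64 to -5.38 (median -5.75) in C2C12, where 2 of 6 arrays were well above background. The droplet coat protein Plin5 (11.43), the mitochondrial entry enzyme Cpt1b (10.22) and the coactivator Ppargc1a (5.53) were called higher. Pdk4, which closes pyruvate dehydrogenase during fasting, stood at 8.06, 8.08 and 6.28 in soleus against 0.92 to 1.33 (median 1.09), a difference of 6.37, and the mice but not the cells had been fasted, so fasting and tissue cannot be told apart.

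Of 30 tested glycolysis and glycogen genes 16 were called higher and 5 lower in soleus (53.3% and 16.7%, against 20% and 14.3% of all tested genes), with a median of 2.63 that was 0.80 and 1.07 without soleus replicates 1 and 2 and 1.35 with quantile normalization. Those called lower were Eno1 (-4.66), Pygb (-2.94), Pfkl (-2.72), Pgam1 (-2.65) and Hk1 (-2.17). Eno1 stood at -1.57, -3.36 and -0.59 in soleus and 2.73 to 2.88 (median 2.85) in C2C12. Muscle glycogen phosphorylase Pygm was at least 997-fold higher in soleus, and lactate dehydrogenase Ldhb differed by 6.64 and hexokinase Hk2 by 3.22. Gapdh differed by 0.69.

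In 3 lists of biosynthesis genes, some members were called, all of them higher in C2C12. Of 27 ribosome biogenesis genes 11 were called higher in C2C12 and 0 in soleus (median -1.86). The numbers were 10 and 0 of 22 genes of serine, one-carbon and amino acid stress metabolism (median -1.42). For 23 cholesterol synthesis genes they were 11 and 0 (median -1.76). The shares called higher in C2C12 were 40.7%, 45.5% and 47.8%, against 14.3% of all tested genes, of which 20% were called higher in soleus. Myc stood at 0.18, 0.50 and -0.39 in soleus and 2.03 to 2.50 (median 2.24) in C2C12, a difference of -2.15. The mitochondrial folate enzyme Mthfd1l (-5.97), the first serine synthesis enzyme Phgdh (-3.70) and asparagine synthetase Asns (-3.29) were called higher in C2C12. Squalene epoxidase Sqle stood at -1.47, -0.52 and 0.65 in soleus and 4.32 to 4.53 (median 4.41) in C2C12, a difference of -4.85. CCAAT lay within 250 bases before the start in 16 of 17 cholesterol genes with a promoter in the table (94.1%), 14 of 21 serine and one-carbon genes (66.7%) and 6 of 21 ribosome biogenesis genes (28.6%), against 37.5% of 27025 genes. It also lay there in 14 of 23 genes of pyruvate entry and the TCA cycle (60.9%) and 11 of 16 clock genes (68.8%). Both of those lists had medians higher in soleus. The stress mediators Trib3 (-0.62) and Ddit3 (0.53) lay below the 4-fold limit.

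Of 22 fibrillar matrix and remodelling genes 5 were called higher and 8 lower in soleus (22.7% and 36.4%, against 20% and 14.3% of all tested genes), with a median of -0.48 that was -1.10 and -1.22 without soleus replicates 1 and 2. Collagen Col1a1 stood at 6.79, 7.17 and 6.84 in soleus and 0.90 to 1.16 (median 1.05) in C2C12, a difference of 5.88 ± 0.13 (adjusted p = 1.93e-10), and Postn differed by 3.56. The protease inhibitor Timp1 (-4.72), the collagen cross-linking enzyme Lox (-3.20), tenascin Tnc (-2.67) and fibronectin Fn1 (-2.55) were called higher in C2C12. Of 20 cytoskeletal targets of SRF and YAP 2 were called higher and 5 lower (10% and 25%, against 20% and 14.3% of all tested genes, median -1.12), with Ankrd1 at -4.60. In the basement membrane and adhesion list, 4 of 23 were called higher and 3 lower (17.4% and 13%, median 0.14), near the 20% and 14.3% of all tested genes. Dystrophin, Dmd, by the probe used, was at least 230-fold higher in soleus, and laminin Lama5 (-3.45), integrin Itga7 (-2.72) and integrin Itga5 (-2.32) were called higher in C2C12.

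Of 14 proteolysis and FOXO target genes 7 (50%) were called higher and 0 lower (median 1.86), against 20% and 14.3% of all tested genes. The muscle ubiquitin ligase Trim63 stood at 4.28, 4.04 and 6.12 in soleus and -1.88 to -1.49 (median -1.57) in C2C12, and Fbxo32 differed by 3.50. For this list too, fasting of the mice and tissue cannot be told apart. Of 17 clock genes 4 were called higher and 1 lower (23.5% and 5.88%, median 0.96), against 20% and 14.3% of all tested genes. The nuclear receptor Rora differed by 5.98, and Bhlhe41 was on in C2C12 and off in soleus. Of 28 growth factors and myokines 10 were called higher and 6 lower (35.7% and 21.4%, against 20% and 14.3% of all tested genes), with a median of 0.26 that was -0.22 and -0.05 without soleus replicates 1 and 2. Insulin-like growth factor Igf1 stood at 1.88, 2.02 and 1.94 in soleus and was off in C2C12, at least 202-fold higher, and myostatin Mstn was at least 6.71-fold higher. Igfbp2 (-6.83) and the activin subunit Inhba (-4.00) were called higher in C2C12.

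Imprinted growth genes, expressed from 1 parental copy and often high in the embryo, were mostly higher in the adult tissue. Of 14 tested 9 were called higher and 1 lower in soleus (64.3% and 7.14%, against 20% and 14.3% of all tested genes). The median was 4.57, or 3.21 with a common detection floor, 3.06 with normexp and 2.70 over genes well above background on all 9 arrays. Grb10, an inhibitor of insulin receptor signalling, stood at 3.79, 3.73 and 4.67 in soleus and was off in C2C12, at least 876-fold higher. The noncoding RNA Meg3 was at least 676-fold higher by the probe used, and Igf2 stood at 1.34, 2.05 and 3.80 against -2.67 to -2.20 (median -2.49), a difference of 4.86. H19, which shares a locus with Igf2, did not pass the adjusted p (difference -0.21, adjusted p = 0.643), and its groups overlapped. Peg3 was the member called lower, at -1.70, -2.60 and -6.23 in soleus and 0.02 to 0.53 (median 0.37) in C2C12.

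The tissue carried markers of cells that are not muscle fibres, and some of them were off in C2C12. Of 11 tested endothelial markers 11 were called higher in soleus and 5 were on in soleus and off in C2C12. Of all tested genes 20% were called higher and 14.3% lower, and 2.41% of all gene names were on in soleus and off in C2C12. A marker seen in soleus alone could pass the filter on dim probes, so shares called higher for cell types depend partly on that filter. The endothelial median was 9.22, or 8.38 with on and off genes at their bound and 6.04 with a common detection floor. Emcn stood at 4.36, 4.35 and 4.28 in soleus and was at least 1054-fold higher. The summed signal of the 12 endothelial probes, in units of the array's 75th percentile and with spots marked as outliers kept, was 154 to 182 on soleus arrays and 0.392 to 0.475 on C2C12 arrays, with the largest part of the soleus sum from Robo4. Probes differ in brightness for the same amount of RNA, so the gene that gave the largest part of a sum is not thereby the most abundant transcript. Of 12 macrophage markers 10 were called higher in soleus and 1, the lipopolysaccharide receptor Cd14 (-2.78), lower. Their summed signal was 43.7 to 133 in soleus, with the largest part from Lyz2, and 1.99 to 2.55 in C2C12, with the largest part from Cd14. Lyz2 was off in control C2C12 but well above background on all 6 arrays of C2C12 cells overexpressing HDAC4 and HDAC5. Of 7 smooth muscle and pericyte markers 5 were called higher and 0 lower, with a sum of 76.1 to 121 in soleus, with the largest part from Kcnj8, and 16.0 to 18.4 in C2C12, with the largest part from Notch3. The part of these cell types in the other differences was not tested.

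Lists of markers for fat, connective tissue, blood and nerve went mostly the same way. In each list below 66.7% to 100% of tested markers were called higher in soleus, against 20% of all tested genes, of which 14.3% were called lower. Of 7 tested adipocyte markers 6 were called higher in soleus, among them the complement protease Cfd at 7.15, 6.49 and 6.59 in soleus and at least 5607-fold higher, and adiponectin Adipoq, at least 635-fold higher. Their sum was 265 to 455 in soleus, with the largest part from Fabp4, and 4.40 to 5.42 in C2C12, with the largest part from Pparg, the adipogenic regulator that was lower in soleus by a difference of -1.31 (adjusted p = 9.28e-06). Of 10 fibroblast markers 8 were called higher and 0 lower, with a sum of 398 to 459 in soleus and 86.7 to 145 in C2C12, with the largest part from gelsolin Gsn in both. Of 6 tendon markers 5 were called higher, with Thbs4 and Tnmd off by their probes in C2C12, while Scx, a regulator of tendon cells, was lower in soleus (-1.54) and gave the largest part of the sum in both groups, with sums of 47.8 to 103 and 35.5 to 82.8. Of 7 listed erythrocyte markers 5 were on the array and 2 were tested, both called higher. Their median difference was 8.81, or 3.98 with no filter on dim probes. The summed signal was 132 to 335 in soleus and 0.541 to 0.725 in C2C12, with the largest part from Hba-a1. Of 8 listed Schwann cell markers 6 were tested and 4 called higher, and of 10 lymphocyte and MHC class II markers 7 and 6. In both lists 0 were called lower, and 2 of the 8 Schwann cell and 3 of the 10 lymphocyte markers were off on all soleus arrays. Of the 8 Schwann cell markers 5 were on in C2C12 and 0 were on in soleus and off in C2C12. This list therefore does not show that nerve was present. The lymphocyte median of 5.24 was 3.25 with no filter on dim probes and 1.87 with a common detection floor. The Schwann cell median of 3.10 was 2.52 and 1.63. The Schwann cell and lymphocyte sums were 4.99 to 9.98 and 4.42 to 5.16 in soleus, with the largest part from S100b and H2-Ab1. In C2C12 they were 1.00 to 1.16 and 0.154 to 0.286, with the largest part from Egr2 and Cd74.

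**Figure D5:**
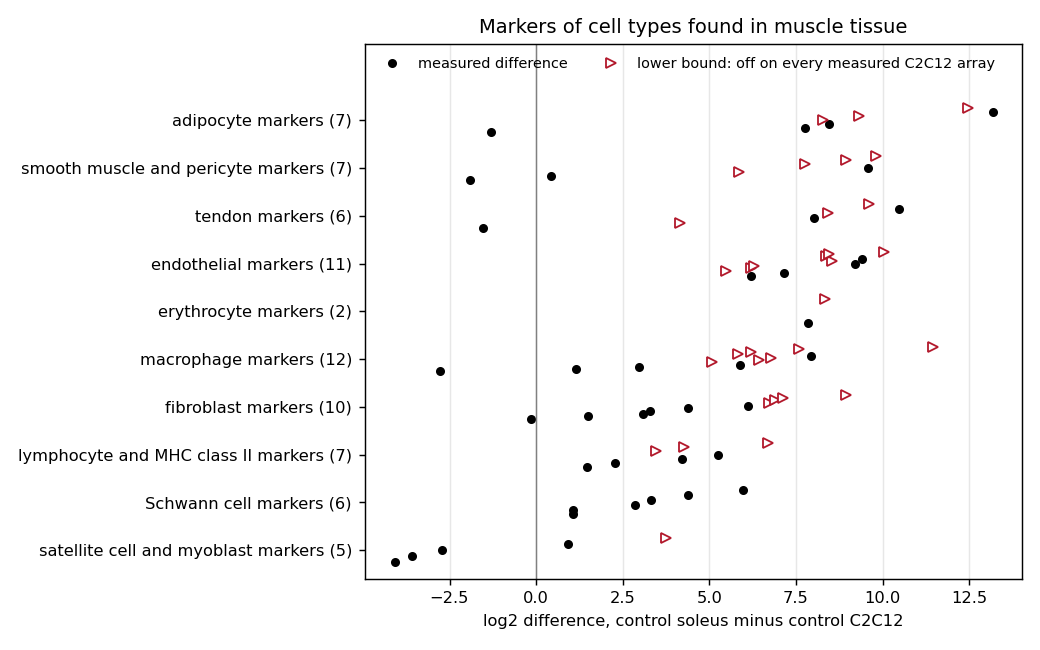
Log2 difference between control soleus and control C2C12 (horizontal axis, positive is higher in soleus) of each tested marker, grouped by cell type with the number of genes tested. Open triangles are lower bounds for genes well above background on no C2C12 array, and most markers lie to the right of 0 except those of satellite cells and myoblasts.

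Markers of satellite cells and myoblasts went partly the other way. Of 5 tested, 1 was called higher and 3 lower in soleus (20% and 60%, against 20% and 14.3% of all tested genes). The median was -2.72, and 0.71 without soleus replicate 2. Vcam1, a cell adhesion molecule, stood at -0.97, -1.26 and -1.88 in soleus and 2.64 to 2.81 (median 2.70) in C2C12, a difference of -4.09, beside Myod1 and Itga7. The calcitonin receptor Calcr, a marker of quiescent satellite cells, stood at -2.12, -1.22 and -2.52 in soleus and was off in C2C12, at least 13.5-fold higher. The sum of the 9 probes was 13.8 to 16.6 in soleus, with the largest part from Sdc4, and 62.8 to 123 in C2C12, with the largest part from Cdh15. Pax7 and Myf5 were not well above background on any C2C12 array and were not tested.

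Sex-linked transcripts separated the male mice from the cell line. The Y-linked genes Eif2s3y, at 2.02, 2.75 and 2.37 in soleus, and Kdm5d were on in soleus and off in C2C12, at least 272-fold and 33.4-fold higher, and Ddx3y was well above background on 3 of 3 soleus arrays and 1 of 6 C2C12 arrays. Xist, the RNA that silences an X chromosome, stood at 1.55 to 2.13 (median 1.93) in C2C12 and was not well above background on any soleus array by the probe used, at least 42.1-fold higher in C2C12. The sex of the animal the line came from is not in the labels.

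Genes on in 1 group and off in the other were ranked by their bound. Actn2 is not among them because its spot on soleus array 3 was marked as an outlier and a gene on in a group needs a usable probe on every array. Mitochondrial creatine kinase Ckmt2, Pygm and Rpl3l, well above background on 2 soleus and 0 C2C12 arrays, are not ranked either. The fitted difference of Ckmt2, 16.43, was taken against C2C12 values below detection and is not a measured fold. The 8 with the largest bounds in soleus were the Z-disc protein Myot (at least 13141-fold), the alpha myosin heavy chain Myh6 (6869, from the 2 soleus arrays on which the probe used had a usable spot), Cfd (5607), the membrane protein Itm2a (4130), lysozyme Lyz2 (2815), the muscle AMP deaminase Ampd1 (2795), the TAM receptor ligand Gas6 (2357) and Pvalb (2176). Myot stood at 8.44, 8.55 and 6.92 in soleus, and not 1 C2C12 array was well above background. On the 6 arrays of C2C12 cells overexpressing HDAC4 and HDAC5, the probe used was well above background on 6 for Lyz2, 3 for Gas6 and 1 for Cfd. For the others of these 8 it was so on 0. In C2C12 the 8 were the proliferins Prl2c5 (at least 441-fold) and Prl2c3 (368), near-identical genes whose probes may share signal, the water channel Aqp5 (246), the metalloreductase Steap1 (159), the X-linked homeobox gene Rhox5 (123), the mitotic Aunip (111), the hyaluronan synthase Has1 (103) and Shcbp1 (85.5). Prl2c5 stood at 5.13 to 5.46 (median 5.24) in C2C12.

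On arrays that were not used to choose the genes, 511 of the 660 (77.4%) were on on all 4 db/db soleus arrays and 454 (68.8%) were off on all 6 arrays of C2C12 cells overexpressing HDAC4 and HDAC5. Over all gene names 36.9% were on on the db/db arrays and 35.6% off on those C2C12 arrays. Of the 1099, 705 (64.1%) were on on all 6 of those C2C12 arrays and 588 (53.5%) were off on all 4 db/db arrays, against 41.8% and 34.4% of all gene names. These arrays share slides with the control arrays and carry another genotype or plasmid, so the shares are a description.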

How the data were processed

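Cy3-labelled RNA, made from 100 ng of total RNA per sample, was read on Agilent mouse arrays with 1 colour. Per the labels the arrays were read with Agilent Feature Extraction 9.5.1.1, and the authors deposited per-spot intensity, in which the processed signal is background-subtracted and detrended within the array, with 0 or 1 flags. The deposited matrix holds a ratio of the processed signal to 1 constant per array, and 10 of its columns belong to other groups and were not used. For soleus replicates 1 and 2 its values were not a constant multiple of the scanner file (SD of the log2 offset 0.434 and 0.363), so it served only as an alternative.

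Here, control spots and outlier-marked spots were left out, spots of a probe were averaged, and log2 signal minus the array's 75th percentile was used. Spots marked as outliers numbered 554, 548 and 2184 on the soleus arrays and 998 to 1388 on the C2C12 arrays. They included spots of abundant muscle genes such as Tnnc1, Mylpf and Fabp3, which were therefore not tested. A gene's probe was the one with the highest average of both group means, and a gene was tested with at least 2 soleus and 4 C2C12 arrays. Dim probes were also filtered out, with 14673 genes tested after that filter and 27079 without it. A gene well above background in only 1 group, such as Myot, could pass the filter. The test was limma 3.58.1 under R 4.3.3 (lmFit, eBayes, Benjamini-Hochberg over all genes tested). Tables were made with Python 3.11.15, pandas 2.3.3 and matplotlib 3.10.9. A probe below the detection flag throughout a group gives only a minimum fold: the mean of the brighter group against the mean, over the dim group's arrays, of the higher of the lowest signal well above background and the probe's own value. Of 41174 probes, 27198 were named by accession through RefSeq, 721 from an older symbol, and the rest kept the file's name. Promoters and motifs came from RefSeq on GRCm38.p6. In data simulated for this comparison on 12247 genes, 99.5% of genes changed by 3 on the log2 scale were recovered. The simulated noise was normal with the same SD for all genes of a group, without a detection floor, saturation, missing spots or slide effect. It was a check of the fit and does not give the recovery in the real data.

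The genes and lists were chosen with earlier results of these data known, so no p over a list is given. Named genes were the 10 largest differences each way among genes detected on all 9 arrays that passed the adjusted p without overlap, the 8 on or off genes with the largest bound each way, the paralogue pairs, and up to 8 members of each list. Other members named in the text, such as Gapdh, were chosen after values were seen. Replicate numbers did not pair the groups: deviations of same-numbered arrays correlated at 0.0629, -0.0378 and 0.0979. Alternatives covered normalization, background correction, filters, probes, slide as a random block (consensus correlation 0.665), the replicate number as a block, array weights, all groups in the fit, the methods' t-test, saturated spots, left-out arrays, the fold limit and rules for on and off. Keeping outlier-marked spots and a common floor at -3.3 were added after seeing the data. On and off were counted over spots without outlier marks, as the rule for the comparison states, and the count with those spots kept was computed only after the first count was seen. Some items are not reported here, and 1 tested paralogue pair is counted but not drawn.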

Additional observations from a re-analysis of the deposited data

Results flagged for a closer look

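Of 101 groups of 6 C2C12 arrays tested for an array far from the others, 6 were, and chance gives about 1 in 20, or 5.05. The median of slow fibre isoforms was -0.304 and that of fast fibre isoforms -3.016 in C2C12 replicate 3, where 11 and 10 of the 12 genes had a usable spot, and Slpi was 5.14 there. The median of cell cycle and DNA replication genes was 3.304 in C2C12 replicate 5. The median of Schwann cell markers was -3.133 in C2C12 replicate 4, where 5 of 6 genes had a usable spot. Trdn was -3.659 in C2C12 replicate 6. In each case the groups of soleus and C2C12 arrays did not overlap.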

How the results depend on the processing

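Across the alternatives 288 of 394 named genes called at 4-fold kept their call under every one and 106 lost it under at least 1. The genes called higher in soleus and in C2C12 numbered 2939 and 2103. Leaving out arrays gave 2838 to 3056 and 1958 to 2201. Values outside 1.5 times were 10526 higher in soleus with no filter on dim probes, 1638 and 1183 with genes well above background on all 9 arrays, 1336 higher in C2C12 with normexp, 1447 higher in soleus from the authors' matrix, 4540 and 4298 at a 2-fold limit and 979 higher in C2C12 at an 8-fold limit. Genes on in 1 group only fell from 660 and 1099 to 334 and 541 with the less strict detection flag. Without single arrays they were 691 to 736 and 1106 to 1439. Added after seeing the data, outlier-marked spots kept gave 3005 and 2106 called genes and 763 and 1200 on and off genes, and a common floor gave 2264 and 1701. The median of all tested genes moved from -0.02 to -0.29 with quantile normalization, 0.16 with the median of detected probes, 0.24 with normexp and 1.55 with no filter, where 83.3% of calls were higher in soleus. With the replicate number as a block the counts were 2974 and 2120.

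Called values and medians beyond 1 on the log2 scale reversed in these cases, and the cause was not tested except where given. The adipocyte median of 9.63 became -1.307 over genes well above background on all 9 arrays, where Pparg alone was left. The satellite cell median of -2.72 was 1.525 with no filter, and it ran from -3.043 to 0.707 without single arrays, above 0 only without soleus replicate 2. Smaller medians also changed sign: growth factors (0.26) to -0.33 and myogenic regulators (0.63) to -0.08 over genes well above background on all 9 arrays, and cell cycle inhibitors (-0.04) to 0.14 with the median of detected probes and to 0.65 without soleus replicate 1. Tpm1 was -1.026 by the mean of its probes, -3.205 and -3.107 without soleus replicates 1 and 2, up to 3.198 without another array, and -3.333 in the authors' matrix. Acta2 was -0.478 and Ndufb8 -0.698 in that matrix, and Ndufb8 was -0.244 to 2.325 without single arrays, below 0 for 6 of them. Bub1 was 0.077 with quantile normalization and 0.435 over genes well above background on all 9 arrays, and Atp5e was -0.052 with quantile normalization. Brightness limits the soleus side: differences of dim genes are bounded by the higher detection limit there.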

Other observations

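Keeping spots marked as outliers, a choice made after seeing the data, gave values for muscle genes that could not be tested otherwise. Most of these spots were saturated on some arrays, so the differences are lower limits except that of the mitotic cyclin Ccna2 (-6.34), which had no saturated spot. The slow troponin C Tnnc1, saturated on 1 soleus array, had a mean signal of 6.91 in soleus and 2.09 in C2C12, a log2 difference of at least 4.81. Spots of the fatty acid binding protein Fabp3 (at least 8.03), the perinatal myosin heavy chain Myh8 (at least 8.11) and the fast light chain Mylpf (at least 3.30) were saturated on all 3 soleus arrays. The myoblast cadherin Cdh15 had 2.28 in soleus and 6.01 in C2C12, where 5 of 6 arrays were saturated, and was higher in C2C12. Cyclin Ccnb2, saturated on 1 C2C12 array, was also higher in C2C12, and the connective tissue proteoglycan Dcn, saturated on 1 soleus array, was higher in soleus by at least 5.26.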
